A study of Mus musculus with 8 samples.

Results

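This account follows 29 mouse genes for RNA-binding regulators that act on neuronal mRNA, chosen by name: ELAVL (Elavl1 to Elavl4), NOVA (Nova1, Nova2), MBNL (Mbnl1 to Mbnl3), CELF (Celf1 to Celf6), PTBP (Ptbp1, Ptbp2), RBFOX (Rbfox1 to Rbfox3), KHDRBS (Khdrbs1 to Khdrbs3), TIA (Tia1, Tial1), and Tardbp, Srrm4, Qk and Pum2. Rows were taken where the gene symbol matched exactly, which gave 30 of the 25815 rows in the count table. Qk had 2 rows. Mbnl3, with 0 to 8 counts per library, did not pass the filter on low counts, so 29 rows were among the 16810 genes tested. The libraries came from poly(A)-selected RNA of brains, described as whole, of 8 untreated mice killed at postnatal day 50. The mutant group, D50A (5 libraries), carried the Cstf2 D50A allele, and the wild-type group, WT (3 libraries), came from littermates on the same C57BL/6NCrl background. The colony was congenic, bred within itself after a limited number of backcrosses, and the labels name neither sex nor dissection day. The comparison asked whether a change in CSTF2, a cleavage and polyadenylation factor, altered the mRNA levels of these regulators.

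CSTF2 binds U-rich or GU-rich RNA downstream of the cleavage site and helps to place the 3′ end of mRNAs. Neurons use long 3′ UTRs and many neuron-specific exons, and the proteins studied here read sequence elements in both. ELAVL proteins bind AU-rich and U-rich elements, NOVA proteins YCAY clusters, MBNL proteins YGCY motifs, CELF proteins GU-rich elements and RBFOX proteins the motif UGCAUG. Several of them steer the choice of exon, of poly(A) site or both. PTBP1 restrains neuronal exons in other cells, PTBP2 takes over in young neurons, and SRRM4 promotes neuronal microexons. Gene counts report the level of an mRNA summed over its isoforms and do not show which exons or poly(A) sites were used.

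The libraries held 13675945 to 24802272 counts. D50A 3 stood apart: mitochondrially encoded genes took 11.9% of its counts and 4.08% to 5.14% elsewhere, and its summed mature oligodendrocyte markers were 21755 CPM (counts scaled by library size and composition) against 9768 to 11783 CPM elsewhere. The 12 cerebellar granule and Purkinje cell markers summed to 1143, 2109, 1525 and 1579 CPM in D50A 2 to 5. In D50A 1 and the WT libraries these sums were 310 CPM and 315 to 342 CPM. Whether every sample held the same share of cerebellum was not tested. Neuron markers, 11 of 11 detected in every library, had sums of 7016 to 7535 CPM over the D50A and 7495 to 7739 CPM over the WT libraries. Cstf2 itself ranged from 65.8 to 129 CPM among D50A and from 122 to 135 CPM among WT libraries, and a missense allele need not alter its count. In tissue RNA, fewer cells of a type and less RNA per cell cannot be told apart.

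Most members have long 3′ UTRs. The median 3′ UTR of the longest protein-coding transcript was 2942.5 bases over the 28 tested and annotated members, against 1141 bases over the tested genes with one, and 26 of 28 members were above that median. Their median GC content, 44.5%, was below the 50.1% of all tested genes, and 10 of 28 were above it. The hexamer AATAAA, the canonical poly(A) signal, stood within the last 50 bases of the annotated transcript in 18 of 28 members (64.3%, against 64% of 14878 genes). The variant ATTAAA without AATAAA stood there in 5 members (17.9%, against 14.8%). Neither was found in Nova1, Nova2, Celf6, Rbfox1 and Rbfox3 (17.9%, against 21.2%). Only the transcribed strand was searched, and a match is a description of the letters at 1 annotated end. The sites below are from the GENCODE M21 transcripts on mm10, read 5′ to 3′ on the strand of the gene with the hexamer in capitals. They are shown for the CELF genes with a hexamer other than Celf4, and for Tia1, Tial1 and Pum2, whose values are given library by library.
Celf1, chr2:91019472-91019497, plus strand: tttgctATTAAActgtttgagaagaa
Celf2, chr2:6539705-6539726, minus strand: atattcAATAAAtggactttgg
Celf3, chr3:94492164-94492193, plus strand: tgtctaAATAAAgaaaaaacatttgaaagc
Celf5, chr10:81459230-81459259, minus strand: ttatttAATAAAagttttacttgttaacag
Tia1, chr6:86433380-86433405, plus strand: tatatcAATAAAtctttaaaactgcc
Tial1, chr7:128439777-128439803, minus strand: tctttcAATAAAgactagtctatgtaa
Pum2, chr12:8752521-8752550, plus strand: gtatgaAATAAAcctggtcttgtgtttttc
Celf2, Celf3, Celf4 (sequence not shown) and Celf5 all carry AATAAA near the annotated end, as do Tia1, Tial1 and Pum2. Celf1 carries ATTAAA and Celf6 neither.

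No member passed the test between the 5 D50A and the 3 WT libraries. By edgeR's quasi-likelihood test 0 of 29 members were higher and 0 lower at an adjusted p under 0.05, as was the case for 0% of all genes tested in either direction, and adjusted p ran from 0.837 to 0.998. At an unadjusted p under 0.05 there were 0 members, against 1.64% of all genes higher and 0.863% lower. DESeq2 also called 0 members (0.202% of genes higher, 0.0357% lower), as did limma-voom with sample quality weights (1.87% and 1.2%), a fit that can give less weight to a library that stands apart and is meant by limma-voom below. The median log2 fold change of the members was -0.09, against -0.01 over all genes, and 23 of 29 were below 0, against 51.4% of all genes. That count was 14 of 29 without D50A 1 and D50A 3, and 10 of 29 with an offset for transcript length. By limma-voom, 5 members were lower at an unadjusted p under 0.05 (11.6% of all genes were), and all 5 were CELF genes: Celf2, Celf3, Celf4, Celf5 and Celf6.

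**Figure D1:**
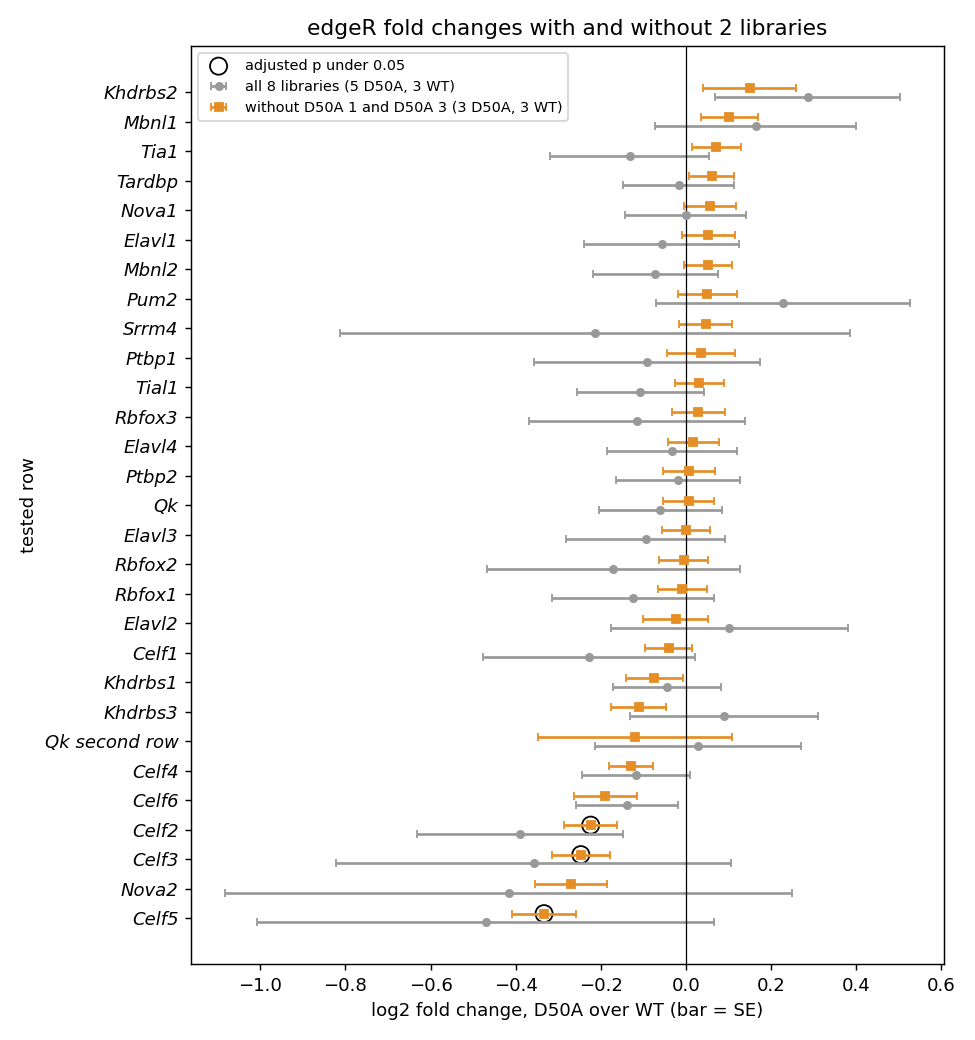
Log2 fold changes of D50A against WT with their SEs for the 29 member rows tested, from the edgeR fit of all 8 libraries and from the fit without D50A 1 and D50A 3. All 6 CELF genes lie below 0 in both fits, though Celf1, Celf4 and Celf6 do not under every offset for length or GC content, and the bars are far narrower without the pair of libraries.

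CELF proteins bind GU-rich elements in introns and 3′ UTRs and act on splicing, mRNA decay and translation. All 6 CELF genes had a negative log2 fold change with all libraries (Celf1 and Celf4 did not with a length offset, nor Celf4 and Celf6 with length and GC offsets), as had the tested NOVA, PTBP, RBFOX and TIA genes, and without D50A 1 and D50A 3 no family but CELF had every tested member below 0. Celf2 (chromosome 2, 6539694 to 7509563 in mm10, minus strand) was at 408, 435, 207, 376 and 414 CPM in D50A 1 to 5 and at 505, 453 and 488 CPM in WT 1 to 3. All 5 D50A libraries lay below the lowest WT library, and D50A 3 lay far below the other 4. The log2 fold change of Celf2 was -0.39 (SE 0.24, edgeR adjusted p = 0.84), and without D50A 3 it was -0.23 (SE 0.07, edgeR adjusted p = 0.28, unadjusted p = 0.0057). In that fit of 7 libraries edgeR called 0 members, as it did 0% of all genes, and Celf2 was the 1 member lower at an unadjusted p under 0.05, against 4.33% of all genes.

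Celf4, a neuron-enriched member tied to seizure susceptibility in mice, was at 438, 436, 444, 415 and 411 CPM in D50A and at 472, 453 and 469 CPM in WT. Its groups did not overlap either, and D50A 3 was here the highest D50A library. For Celf4 the log2 fold change came to -0.12 (SE 0.13, edgeR adjusted p = 0.84). Celf2 and Celf4 were the 2 of 29 members with every D50A library below every WT library, which held for 4.24% of all genes (5.26% without D50A 3, where the same 2 members did so). With RLE or upper-quartile scaling this held for Celf2 alone, and with an offset for transcript length, or for length and GC content, for neither. In the other direction there were 0 members, against 3.22%.

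Celf6, the least abundant member of the family, was at 25.7, 22.9, 24.6, 22.4 and 22.2 CPM in D50A and at 27.2, 24.5 and 26.1 CPM in WT, so D50A 1 and D50A 3 overlapped with WT. Celf1, the broadly expressed member, was at 239, 255, 120, 240 and 255 CPM against 265, 248 and 267 CPM. Apart from D50A 3, its libraries lay between 239 and 267 CPM in both genotypes. Log2 fold changes were -0.14 (SE 0.12) for Celf6 and -0.23 (SE 0.25) for Celf1, and -0.04 for Celf1 without D50A 1 and D50A 3.

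Celf5 (chromosome 10, 81459227 to 81482709, minus strand) was at 258, 198, 28.5, 170 and 170 CPM in D50A and at 256, 213 and 217 CPM in WT. Celf3 (chromosome 3, 94478295 to 94492198, plus strand) was at 176, 128, 27.6, 118 and 119 CPM in D50A and at 161, 140 and 136 CPM in WT. Both genes, brain-enriched CELF members, had the same pattern: D50A 1 was above all WT libraries, D50A 2, 4 and 5 were below them, and D50A 3 was the lowest library of all. Over all 8 libraries the log2 fold change was -0.47 (SE 0.54) for Celf5 and -0.36 (SE 0.46) for Celf3, both within the spread.

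**Figure D2:**
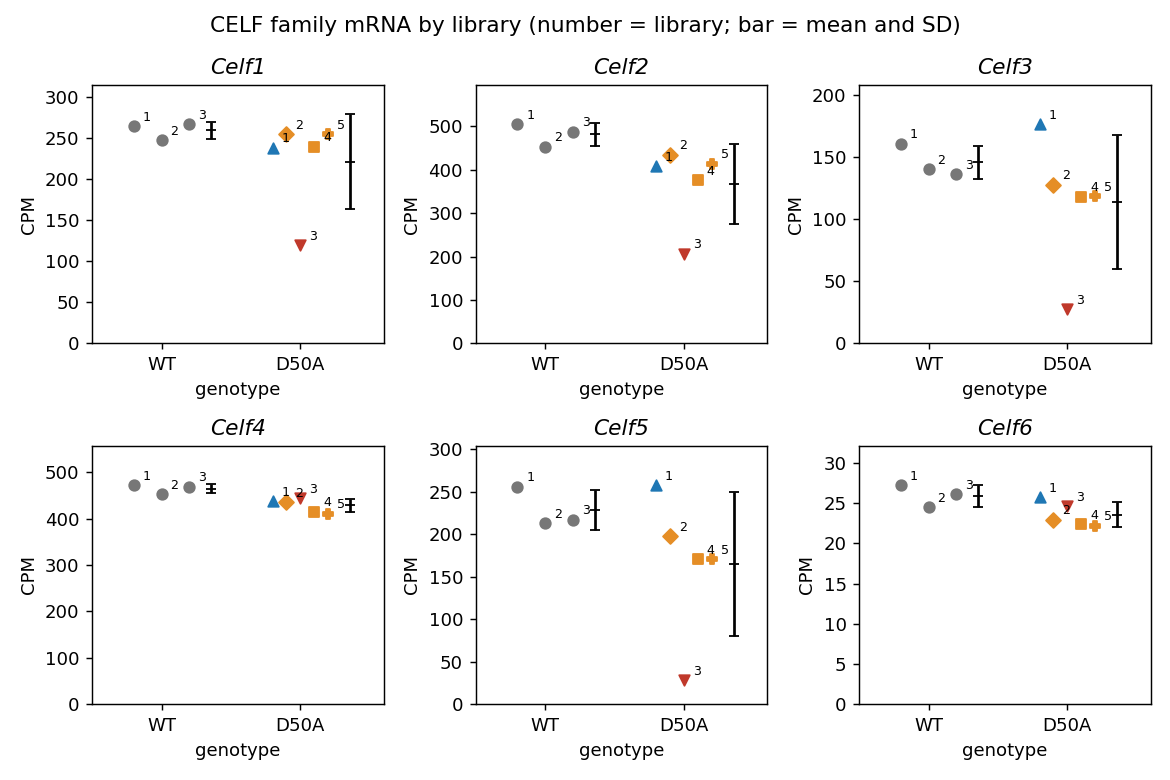
CPM of the 6 CELF genes in each library, with WT on the left, D50A on the right and bars for the mean and SD (n = 3 and n = 5). D50A 3 is far below the rest for Celf1, Celf2, Celf3 and Celf5 and within the other D50A values or just above them for Celf4 and Celf6.

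Without D50A 1 and D50A 3, 3 CELF genes passed the test. Unlike D50A 3, D50A 1 had a mitochondrial share (4.08%) and a cerebellar marker sum (310 CPM) near those of WT. D50A 1 also held the highest value of Celf3 and of Celf5, so leaving it out removed values in the other direction. The calls thus rest on the choice of libraries. In the fit of D50A 2, 4 and 5 against the 3 WT libraries, edgeR called 3 of 29 members lower, against 3.06% of 16591 genes. It called 0 higher, against 3.36%. Celf5 fell by 0.33 on the log2 scale (SE 0.08, edgeR adjusted p = 0.0164). Celf3 fell by 0.25 (SE 0.07, edgeR adjusted p = 0.0405) and Celf2 by 0.22 (SE 0.06, edgeR adjusted p = 0.0403). For Celf5 this set 170 to 198 CPM in the 3 D50A libraries against 213 to 256 CPM in WT. Nova2 (-0.27), Celf6 (-0.19) and Celf4 (-0.13) did not pass, with edgeR adjusted p = 0.068, 0.14 and 0.15. In 6 members the 3 D50A libraries lay below all WT libraries (Celf2, Celf3, Celf4, Celf5, Celf6 and Nova2), against 12.3% of all genes. In 1, Tardbp, they lay above, against 13% of all genes.

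The same 3 genes passed in this subset by DESeq2 (3.26% of genes lower, 2.77% higher) and by edgeR with offsets for transcript length and GC content (3.16% and 4.13%), and limma-voom called those 3 and Nova2 (5.14% and 4.66%). None of these tools called a member higher. Over all the alternative settings the adjusted p ran from 0.0015 to 0.97 for Celf5, 0.016 to 0.97 for Celf2 and 0.017 to 0.97 for Celf3, and in no setting that kept D50A 1 or D50A 3 did any of them pass. D50A 2, 4 and 5 all had high cerebellar markers: in this subset edgeR called 12 of 12 of them higher. It also called 3 of 9 astrocyte markers higher and 1 lower, 3 of 5 oligodendrocyte precursor, 1 of 11 neuron and 1 of 8 microglia markers lower, and 1 of 9 mature oligodendrocyte markers and 2 of 12 mitochondrially encoded genes higher. Gabra6, a defining granule cell gene, was the only cerebellar marker with a library at 0 counts. The part of these markers in the CELF values was not tested. In D50A 1, Celf3 and Celf5 lay above every WT library, and Celf2 (408 CPM) and Celf4 (438 CPM) below every WT library. Of the 29 members, 15 lay below the WT range there and 9 above. The ratios to WT in D50A 1 rose with GC content (Spearman 0.79 over the 28 annotated members). These values are from 1 library, and what they owe to genotype was not tested. Between the 6 libraries of the subset, genotype and cerebellar content cannot be told apart.

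The NOVA, RBFOX and ELAVL families, which act largely in neurons, differed between the genotypes by less than the spread between libraries when all 8 were used. Nova1, a splicing regulator of hindbrain and spinal cord neurons among others, averaged 78.8 ± 9.39 CPM in the D50A group (SD, n = 5) against 78.8 ± 0.462 CPM in the WT group (SD, n = 3). Nova2, its paralog prominent in the cortex, was at 82.4, 63.4, 4.26, 49.1 and 54.7 CPM in D50A and at 75.3, 63.6 and 64.7 CPM in WT. D50A 1 was thus the highest library for Nova2 and D50A 3 held almost none of it, and the log2 fold change was -0.42 (SE 0.67). Without D50A 1 and D50A 3 it was -0.27 (SE 0.08), past the threshold by limma-voom and not by edgeR, as given above.

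Rbfox1, Rbfox2 and Rbfox3, the last of which encodes the neuronal nuclear antigen NeuN, were at 259 ± 47.2, 280 ± 87.1 and 226 ± 59.5 CPM (SD, n = 5) in D50A. In WT they were at 283 ± 16.3, 315 ± 8.05 and 244 ± 17.6 CPM (SD, n = 3). The RBFOX log2 fold changes lay between -0.17 and -0.11 over all libraries, and between -0.01 and 0.03 without D50A 1 and D50A 3.

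Of the ELAVL genes, the broadly expressed Elavl1 was at 67.5 ± 12.2 CPM in D50A and 70.3 ± 3.97 CPM in WT (SD, n = 5 and n = 3, here and below). The neuronal Elavl2, Elavl3 and Elavl4 were at 107 ± 39, 235 ± 42.3 and 93 ± 12.7 CPM in D50A, and at 99.2 ± 11, 251 ± 7.56 and 95.1 ± 3.65 CPM in WT. The ELAVL log2 fold changes ran from -0.09 for Elavl3 to 0.10 for Elavl2, the smallest range of the families with at least 3 tested members apart from RBFOX.

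Khdrbs2, which encodes the neuronal STAR protein SLM1, had the second smallest p of the members. It was at 9.77, 11.1, 17, 9.69 and 10.5 CPM in D50A and at 9.04, 10.6 and 8.79 CPM in WT, so the groups overlapped. D50A 3 was its highest library, and its log2 fold change was 0.29 (SE 0.22, edgeR adjusted p = 0.84). Khdrbs1 (SAM68) was at 104 ± 6.51 CPM against 107 ± 7.4 CPM, and Khdrbs3 (SLM2) at 127 ± 35.8 CPM against 119 ± 0.724 CPM. D50A 3 held 190 CPM of Khdrbs3, the highest value.

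Pum2, a Pumilio repressor that binds 3′ UTRs, was at 177, 214, 447, 230 and 243 CPM in D50A and at 209, 218 and 246 CPM in WT. The group difference rested on D50A 3: the other 4 D50A libraries averaged 216 CPM, below the WT mean of 224 CPM. For Pum2 the log2 fold change came to 0.23 (SE 0.30).

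Tia1 and Tial1, which encode U-rich binding proteins of stress granules, were low in the same pair of libraries. Tia1 was at 130, 185, 129, 186 and 188 CPM in D50A and at 179, 170 and 189 CPM in WT. Tial1 was at 117, 142, 112, 140 and 150 CPM in D50A and at 148, 137 and 143 CPM in WT. D50A 1 and D50A 3 were the lowest libraries for both genes, and D50A 2, 4 and 5 lay inside the WT range or within a few CPM of it. The log2 fold changes over all libraries were -0.13 (SE 0.19) for Tia1 and -0.11 (SE 0.15) for Tial1.

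The remaining members differed by less than the spread between libraries. Mbnl1 was at 95.3 ± 27.8 CPM in D50A and 85 ± 6.1 CPM in WT, and Mbnl2 at 208 ± 23.3 and 219 ± 8.12 CPM. Mbnl3 was near the limit of detection, with 0.222 ± 0.175 and 0.331 ± 0.0693 CPM. Ptbp1, the non-neuronal PTB protein, was at 20 ± 5.78 and 21.4 ± 1.41 CPM, and the neuronal Ptbp2 at 108 ± 13.6 and 110 ± 2.58 CPM. Tardbp, which encodes TDP-43, was at 204 ± 13.8 and 206 ± 3.37 CPM, and Qk, the quaking gene of oligodendrocytes and astrocytes, at 359 ± 32.3 and 375 ± 23.7 CPM. The second Qk row (identifier ENSMUSG00000044407, not matched in the annotation used) held 24 to 49 counts per library, 1.97 ± 0.419 and 1.9 ± 0.446 CPM. Srrm4 was at 43.5 ± 21.9 CPM in D50A and 50.5 ± 1.82 CPM in WT, with 48.4 to 57.6 CPM in the 4 D50A libraries other than D50A 3.

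**Figure D3:**
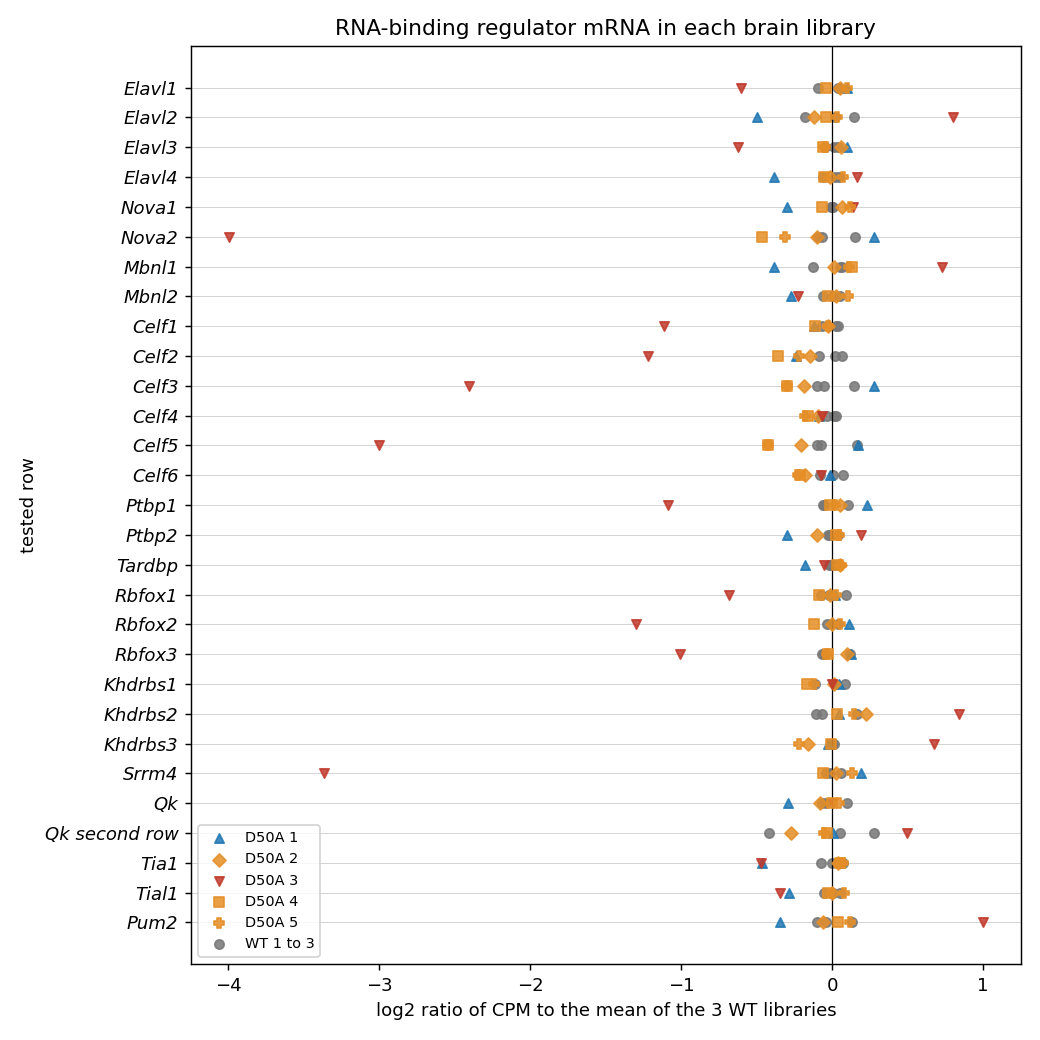
Log2 ratio of CPM to the WT mean for each tested row, with the ratio on the x axis and genes down the y axis. Markers show the WT libraries and each D50A library. D50A 3 carries nearly all of the strong values, with Nova2 the lowest, at 4.26 CPM, and Pum2 the highest ratio, at 447 CPM.

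The widest departures from WT were in D50A 3. In it 17 members lay below the WT range, 9 above and 3 within. D50A 1 had 15 below and 9 above, D50A 2 had 9 and 4, D50A 4 had 13 and 2, and D50A 5 had 8 and 10. WT 1, WT 2 and WT 3 had 7, 14 and 8 below and 16, 3 and 10 above. Each WT library was set against the range of the other WT libraries alone, so these counts are not on the same footing. The share of all genes outside the WT range was not computed, so the counts cannot be read as particular to the members. In D50A 3, 9 of 29 members differed from the WT mean by over 2-fold, all downward, against 47.4% of 12508 genes there. None of the members did so in the other D50A libraries. Srrm4, the microexon regulator, was at 4.90 CPM there, a log2 ratio of -3.37 to the WT mean, and Celf3 had a ratio of -2.40. Elavl2, Khdrbs2, Mbnl1 and Khdrbs3 were on the other side, at log2 ratios of 0.80, 0.84, 0.73 and 0.67. Paralogs thus parted within this library while its neuron marker sum, 7484 CPM, lay among those of the other libraries. The part of its mitochondrial share, oligodendrocyte markers and cerebellar markers in these values was not tested.

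The members' departures from WT went with GC content, in a direction that differed between libraries. Over the 28 annotated members tested, the Spearman correlation of the log2 ratio to WT with transcript GC content was 0.79 in D50A 1, -0.25 in D50A 2, -0.68 in D50A 3, -0.51 in D50A 4 and -0.68 in D50A 5. The WT libraries, each set against the mean of the other two, had 0.59, -0.36 and -0.36, and all genes had 0.67, -0.02, -0.28, -0.19 and -0.38 in D50A 1 to 5. With transcript length in place of GC content, the members had -0.13, 0.17, -0.15, 0.02 and 0.36 in D50A 1 to 5. All genes had -0.22, -0.17, -0.58, -0.33 and -0.18 with length, further from 0 than with GC content in D50A 2, 3 and 4. Members within a library share its preparation and depth, so these values describe the libraries. Celf3 (GC 57.7%), Nova2 (56.3%) and Celf5 (55.2%) were above every WT library in D50A 1 and below every WT library in D50A 2 to 5, whereas Rbfox3 (58.6%) and Srrm4 (52.2%) were low in D50A 3 and close to WT in D50A 2, 4 and 5. With offsets for transcript length and GC content in all 8 libraries, the log2 fold change was -0.22 for Celf2, -0.38 for Celf5 and -0.28 for Celf3, but 0.00 for Celf4, -0.00 for Celf1 and 0.08 for Celf6. With an offset for length alone, Celf2 was at -0.07, Celf1 at 0.04 and Celf4 at 0.00, while Celf3, Celf5 and Celf6 were at -0.34, -0.41 and -0.12. The common sign of the CELF genes over all libraries, and the size for Celf2, therefore depended on these settings.

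**Figure D4:**
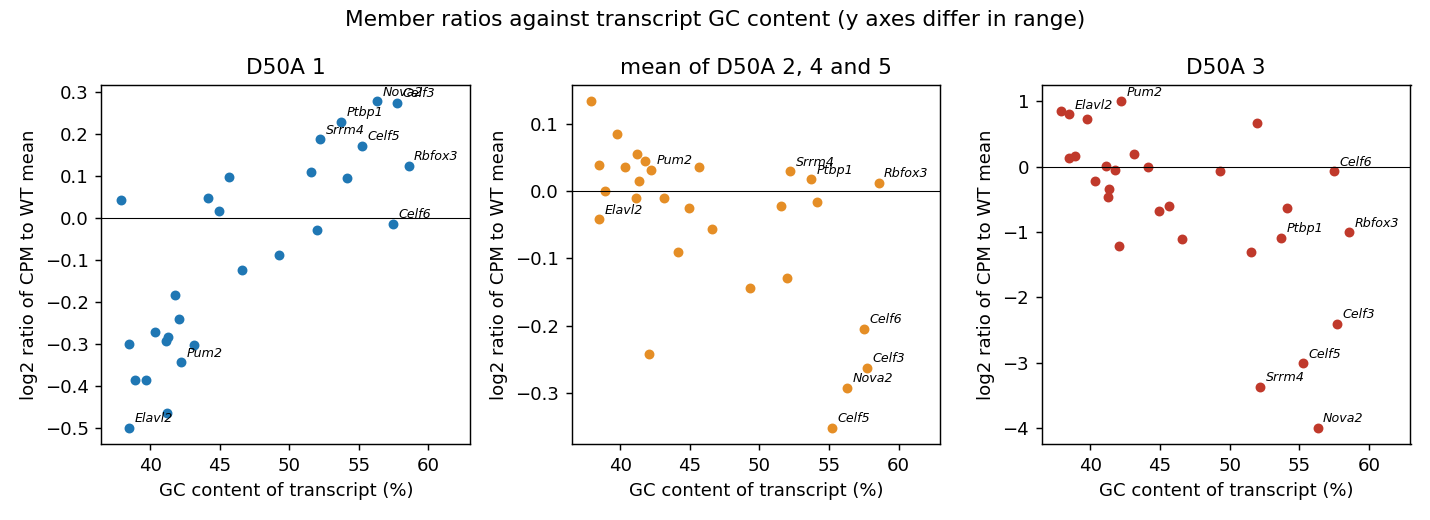
Log2 ratio of each member's CPM to the WT mean against the GC content of its longest protein-coding transcript, for D50A 1, the mean of D50A 2, 4 and 5, and D50A 3 (y axes differ in range). The ratio climbs with GC content in D50A 1, and Nova2, Srrm4, Celf5 and Celf3 lie far below the other members in D50A 3.

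On a scale per length of the longest protein-coding transcript, Celf4 ranked first among the members in WT brain, at 116 ± 2.62 CPM per kb (SD, n = 3). Rbfox1 followed at 92.3 ± 5.33, Rbfox3 at 77.6 ± 5.58 and Khdrbs3 at 63.1 ± 0.383 CPM per kb, each apart from its neighbour by more than their SDs. Celf2 (54.4 ± 2.99), Celf5 (52.1 ± 5.42), Elavl3 (50.1 ± 1.51) and Mbnl2 (48.1 ± 1.78 CPM per kb) came next, with overlapping WT ranges between neighbours. At the lower end stood Nova2 (8.11 ± 0.772), Srrm4 (6.76 ± 0.243), Ptbp1 (6.76 ± 0.446) and Khdrbs2 (1.8 ± 0.189 CPM per kb), with Mbnl3 last at 0.0713. With the summed length of all annotated exons in place of the longest transcript, Rbfox1 came first (64.2 ± 3.71 CPM per kb) and Celf4 second (54.2 ± 1.22 CPM per kb). Under that choice Khdrbs3 moved from rank 4 to 7, Rbfox2 from 10 to 4, Celf2 from 5 to 14 and Tia1 from 12 to 20, so the order depends on the length used at the top as well.

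D50A 3 was also apart in the balance of paralogs within families. Celf4 made up 37.5% ± 1.16 (SD, n = 3) of the summed CELF level per kb in WT, 35.5% to 39.9% in D50A 1, 2, 4 and 5, and 64.2% in D50A 3. The CELF total was 311 ± 15.2 CPM per kb in WT and 309, 284, 173, 261 and 266 CPM per kb in D50A 1 to 5. Ptbp2 held 81.2% ± 0.645 of the PTBP level in WT, 74.9% in D50A 1 and 91.3% in D50A 3. Nova2 held 42.3% ± 2.42 of the NOVA level in WT, and 52.4%, 39.6%, 4.03%, 35.8% and 35.4% in D50A 1 to 5, so D50A 1 was above the WT range and the other 4 below it. Elavl2 held 21.7% ± 2.23 of the ELAVL level in WT and 38.4% in D50A 3, and Elavl3 held 46.0% ± 1.90 in WT and 53.0% in D50A 1. Mbnl1 held 23.8% ± 1.88 of the MBNL level in WT and 37.8% in D50A 3, and Khdrbs3 held 67.5% ± 1.40 of the KHDRBS level in WT and 76.0% in D50A 3. Rbfox1 held 42.8% ± 0.405 of the RBFOX level in WT, 41.1% to 43.3% in D50A 1, 2, 4 and 5, and 50.2% in D50A 3. Tia1 held 55.6% ± 1.08 of the TIA level in WT and 52.5% to 57.0% over the 5 D50A libraries.

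**Figure D5:**
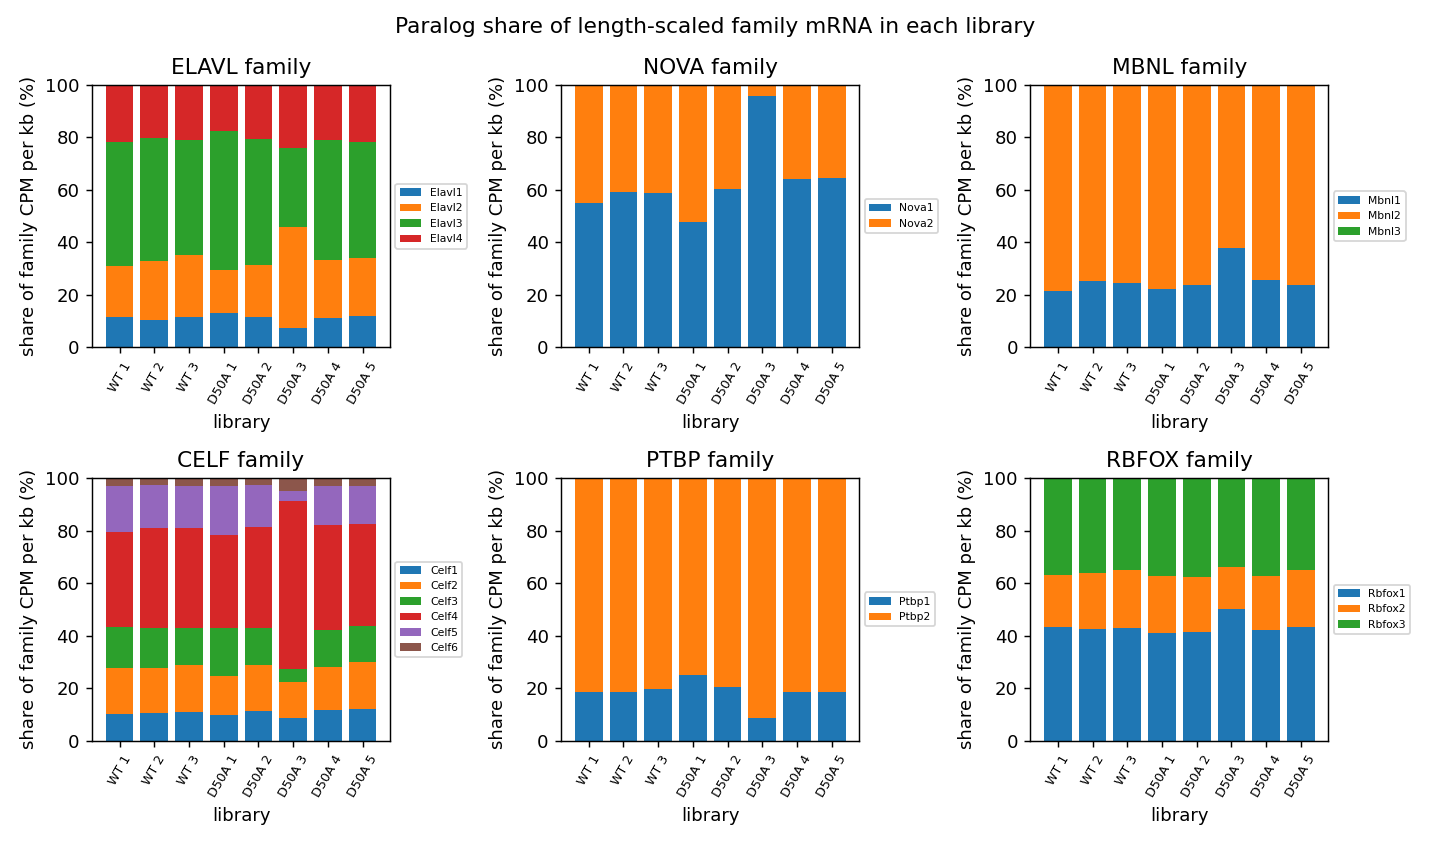
Share of each paralog in the summed CPM per kb of its family, by library, for the ELAVL, NOVA, MBNL, CELF, PTBP and RBFOX families. D50A 3 lies outside the range of the other libraries for Celf4 (64.2%), Nova2 (4.03%), Elavl2 (38.4%), Ptbp2 (91.3%), Mbnl1 (37.8%) and Rbfox1 (50.2%). Nova2 also leaves the WT range in the other D50A libraries.

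A wider list of 32 other RNA-binding regulators (31 tested, among them Ptbp3 and the MSI, FXR, CPEB and STAU genes) had 0 genes called in either direction by edgeR, DESeq2 or limma-voom over all libraries, with 1, 1 and 6 genes at an unadjusted p under 0.05. Over all genes the shares at that p were 1.64% higher and 0.863% lower by edgeR, 2.41% and 0.958% by DESeq2, and 8.65% and 11.6% by limma-voom. Without D50A 1 and D50A 3, edgeR and DESeq2 called 0 of the list. At an unadjusted p under 0.05 edgeR had 8 of the 31 (11.1% of all genes higher, 11.2% lower) and DESeq2 had 6 (8.2% and 9.19%). In that subset limma-voom called Msi2 higher (4.66% of all genes were). There edgeR with length and GC offsets called 2 higher (4.13% of all genes) and 1 lower (3.16%). The median log2 fold change of the list was -0.12, with 25 of 31 below 0 (51.4% of all genes), and -0.03 without D50A 1 and D50A 3. The smallest p belonged to Igf2bp2, an mRNA-stabilizing protein gene, at 1.56 ± 0.379 CPM against 2.29 ± 0.105 CPM (log2 fold change -0.54, SE 0.23). Zfp36l1, which encodes an AU-rich element decay factor, was at 8.04 ± 2.37 and 10.5 ± 0.616 CPM. In both genes every D50A library lay below every WT library, which held for 4.24% of all genes. Ptbp3, the third PTB paralog, was at 27.7 ± 4.82 and 32.4 ± 2.47 CPM, and Msi2, a translational regulator, at 182 ± 25.4 and 158 ± 3.11 CPM.

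Reads could be shared with other genes for some members. Exons of other genes on the opposite strand covered 31.7% of the exon bases of Nova2 (Gm26821), 23.3% of Tardbp (Masp2), 20.7% of Ptbp1 (Plppr3 and others), 8.14% of Celf5 (Gm16105) and 7.58% of Celf2 (Gm26565). The sources used here do not say whether the counting used strand, so reads from these overlaps cannot be told apart. Of the 50-base stretches of the longest transcript, 7.02% in Ptbp1, 6.87% in Tia1 and 4.35% in Elavl3 occurred in transcripts of another gene, and none did in Celf2, Celf3 and Celf4.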

How the data were processed

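Poly(A)-selected brain RNA from 5 D50A and 3 WT mice was sequenced, and the deposited table holds the authors' raw counts of reads on each gene, without normalization. The genome build mm10 and the tools STAR 2.5, HTSeq 0.6.1, CASAVA 1.8 and DESeq2 2 are named in the submitters' processing notes. The annotation release and the strand setting were not given in the sources used here. Libraries were numbered by accession, so equal numbers do not pair animals. No label names a batch, and p-values measure the spread between libraries, which may be partly technical.

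Counts were tested in R 4.3.3 with edgeR 4.0.16 (quasi-likelihood test, filterByExpr, TMM scaling, Benjamini-Hochberg adjustment over all genes tested, threshold 0.05), with all 8 libraries and no covariate. CPM used TMM-scaled library sizes. SEs were taken from each log2 fold change divided by the root of its F statistic. Depth of 13675945 to 24802272 counts per library limits genes with few counts. The tests were first tried on simulated counts. Members and gene lists were chosen with earlier results of these data known. The 10 members with the smallest unadjusted p, and those whose groups did not overlap, have the value of every library given; Nova2 was added to these after its values were seen. From the list of related regulators the 4 with the smallest p are named.

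Alternatives were DESeq2 1.42.0, limma-voom with sample quality weights (limma 3.58.1), robust fitting, other scalings and filters, removal of mitochondrially encoded and hemoglobin genes, per-library offsets from a smoothed trend on transcript length (genes above a mean log2 CPM of 2), each library left out, and D50A 1 and D50A 3 left out. Offsets with GC content, and the subset refitted with other tools or offsets, were added after seeing the data. Lengths, GC content and 3′ ends come from the longest protein-coding GENCODE M21 transcript; 25484 identifiers matched.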

Additional observations from a re-analysis of the deposited data

Results flagged for a closer look

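In 12 members D50A 3 lay further from the other 4 D50A libraries than Dixon's 95% limit for 5 values allows, which chance reaches in about 1 of 20 groups. No other D50A library did so for any member. The share of all genes beyond this limit was not computed, and 47.4% of 12508 genes in D50A 3 differed over 2-fold from the WT mean. The count of 12 therefore describes D50A 3 and cannot be read as particular to these members. D50A 3 was the low value for 9 of the 12 members. Among the CELF and RBFOX genes it had 120 CPM of Celf1 (others 239 to 255), 207 CPM of Celf2 (376 to 435), 176 CPM of Rbfox1 (266 to 288), 128 CPM of Rbfox2 (290.0 to 340.4) and 122 CPM of Rbfox3 (239 to 267). It had 46.3 CPM of Elavl1 (68.3 to 75.2), 163 CPM of Elavl3 (240.3 to 268), 10.1 CPM of Ptbp1 (21.2 to 25.1) and 4.90 CPM of Srrm4 (48.4 to 57.6). It was the high value for 3, with 17.0 CPM of Khdrbs2 (9.69 to 11.1), 190 CPM of Khdrbs3 (102 to 118) and 447 CPM of Pum2 (177 to 243).

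Of the marker lists, D50A 3 was likewise apart in summed CPM for mature oligodendrocytes (21755, others 10656 to 11783), microglia (611, others 244 to 292), choroid plexus (834, others 508 to 571) and mitochondrially encoded genes (150093, others 39394 to 48930).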

How the results depend on the processing

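No member was called higher in any of the 23 alternative settings. Members called lower numbered 0 with all libraries and whenever 1 library was left out, and 3 without D50A 1 and D50A 3 (3 with DESeq2, 3 with length and GC offsets, 4 with limma-voom). Members whose groups did not overlap numbered 2, and 1 (Celf2) with RLE or upper-quartile scaling; with the length offset it was 1, Elavl1, and with length and GC offsets 1, Elavl3, both higher in D50A, with Celf2 and Celf4 lost. The number was 2 to 5 with each library left out (4 without D50A 1, and 5 without WT 2). Over all genes, 1496 of 16685 were apart upward and 1695 downward without D50A 1. Without WT 2 these were 1080 and 1265 of 17074. Without D50A 1 and D50A 3 the number was 7, against 13% of all genes higher and 12.3% lower. With length and GC offsets there it was 8, against 2202 of 16591 genes higher and 2015 lower. The median log2 fold change of the members was -0.09, and -0.12 to -0.04 with each library left out; it was 0.039 with the length offset and 0.021 without D50A 1 and D50A 3 by limma-voom. Celf6 turned to 0.084 with length and GC offsets (edgeR adjusted p = 0.91); the cause was not tested. The sign of 15 of 29 members changed with the length offset, of 12 without D50A 3 and of 15 without D50A 1 and D50A 3, none of these past the threshold. No paired analysis was possible because replicates were numbered by accession and equal numbers do not pair animals. Differences as small as those of most members could not be told from the spread between libraries with D50A 3 in the fit. Without D50A 3 alone, edgeR still called 0 of 16754 genes higher and 0 lower.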
